A study of Bos taurus with 47 samples.

Results

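SCD and FASN are enzymes of fatty acid synthesis, and their transcripts were followed here in cattle tissues. Both were chosen by identifier, ENSBTAG00000045728 for SCD and ENSBTAG00000015980 for FASN, so they are 2 of the 24616 gene identifiers in the deposited table. That table gives identifiers without names, and the names of both genes were taken as supplied and could not be checked against an annotation. The study made 47 RNA sequencing libraries of Holstein cattle, under 15 tissue labels. The same 4 animals, males A and B and 2 cows, gave adipose tissue, liver, lung, ileum, rumen, spleen, kidney, heart, muscle and frontal cortex. A lactating mammary gland came from a single cow, called the lactating cow below, and a dry gland from the other, the dry cow. Both cows also gave ovary and uterus, and 1 more male gave lymphocytes. No treatment or genotype is given for any animal, and age, diet and the fat depot sampled are not given in the sources used here.

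FASN, fatty acid synthase, builds palmitate from acetyl-CoA and malonyl-CoA with NADPH. SCD, stearoyl-CoA desaturase, then places a double bond in palmitate and stearate to give palmitoleate and oleate. In ruminants adipose tissue is the main site of fatty acid synthesis outside lactation, the liver contributes little, and the lactating mammary gland makes much of the milk fat itself, mainly from acetate and 3-hydroxybutyrate.

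Levels are FPKM, a fragment count scaled to transcript length and to library size, as the authors deposited them, and were taken per length. Both genes were above 0 in all 47 libraries. Differences were tested with limma on log2(FPKM + 1) among the 16634 genes that reached 1 FPKM in 2 or more libraries, with Benjamini-Hochberg adjustment over all of them. Both members passed this filter, as they were above 1 FPKM in every library. Summed FPKM per library lay between 576130 and 964931. The depth in fragments is unknown, and the steps between low values gave relative depths of 0.782 to 1.402. In 10 libraries, 9 of them from the lactating cow, genes restricted to rumen stood at 0 to 6.51 ppm of their rumen level, against 79.6 to 777 ppm in the other libraries outside rumen. Marker genes could not be named, so the tissue labels could not be checked against known markers. The animals are the replicates. As these are bulk tissues, a lower share of the cells that make a transcript and less transcript per cell cannot be told apart.

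Both genes had their highest mean in adipose tissue, with the lactating gland next. SCD was at 2452, 4101, 865 and 1143 FPKM in the adipose tissue of male A, male B, the lactating cow and the dry cow, a mean of 2140 ± 1479 (SD, n = 4). FASN, in the same order of animals, was at 2659, 2883, 774 and 453 FPKM, a mean of 1692 ± 1256 (SD, n = 4). The adipose tissue of both males lay above that of both cows for each gene. With 2 animals of each sex this is a description, and the share of all genes tested with this order was not counted. By abundance within these libraries, in the same order of animals, SCD ranked 20th, 7th, 125th and 88th among all identifiers. FASN ranked 19th, 13th, 132nd and 194th. SCD alone took 0.400%, 0.702%, 0.128% and 0.190% of the summed FPKM.

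**Figure D1:**
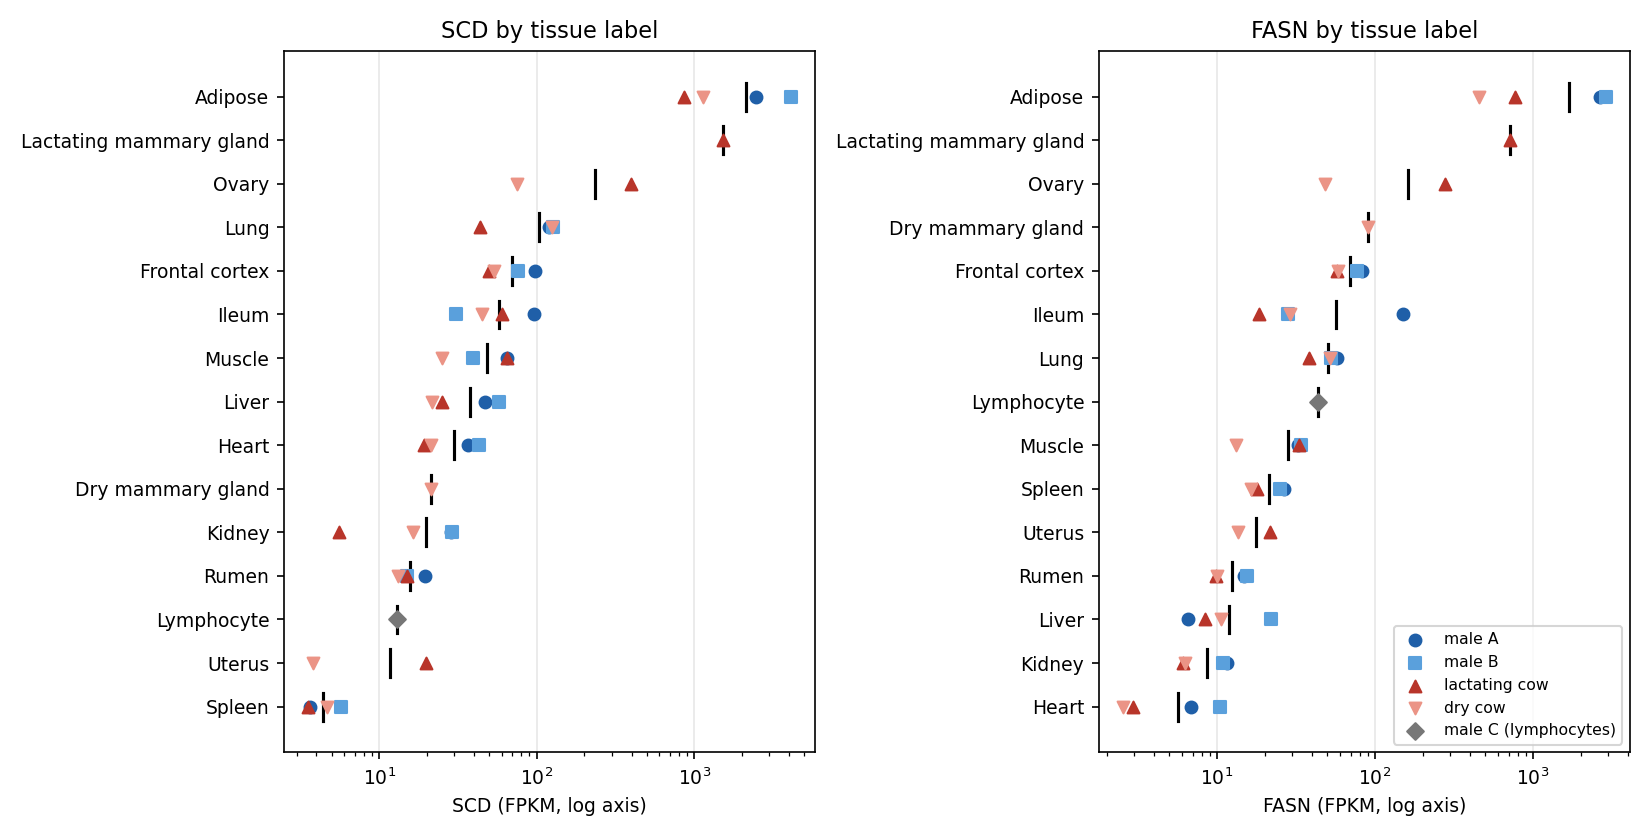
FPKM of SCD (left) and FASN (right) in each of the 47 libraries on a log axis, with tissue labels ordered by their mean (black bar) and animals by symbol. The 4 adipose libraries lie between 865 and 4101 FPKM for SCD and between 453 and 2883 FPKM for FASN, and only the lactating gland falls inside these ranges.

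Compared with the mean of the other 14 labels, adipose tissue was higher by 5.49 ± 0.39 on the log2 scale for SCD (SE; limma adjusted p = 1.61e-14) and by 5.19 ± 0.40 for FASN (limma adjusted p = 1.54e-13). Both passed the call for a label against the rest, an adjusted p under 0.05 and a difference of at least 4-fold, as did 3.47% of all genes tested, while 0.727% passed it in the lower direction. Ordered from the highest to the lowest signed difference, SCD was the 16th and FASN the 25th of the 16634 genes. Outside adipose tissue the lactating gland alone reached the adipose range. The lowest adipose value, 865 FPKM for SCD and 453 FPKM for FASN, lay above the highest value in the remaining labels, 395 and 276 FPKM, both in the ovary of the lactating cow. Of all genes tested, 1.1% separated the adipose libraries from the libraries outside adipose tissue and lactating gland in this way, a split set up after the values of both genes had been seen.

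The lactating gland held SCD at 1517 FPKM and FASN at 716 FPKM, and the 4 adipose libraries lie on both sides of each value. SCD was the 21st and FASN the 68th most abundant identifier there, in a library where 7 other genes held 74.7% of the library's summed FPKM. The adipose tissue of the lactating cow itself had 865 FPKM of SCD, less than her gland, and 774 FPKM of FASN, more than her gland. Adipose tissue minus lactating gland was 0.23 ± 0.81 on the log2 scale for SCD (SE; 95% interval -1.42 to 1.88) and 0.84 ± 0.84 for FASN (95% interval -0.86 to 2.54). Neither difference passed the test (limma adjusted p = 0.873 for SCD and 0.416 for FASN), and the intervals leave room for a difference of more than 2-fold. The median of all genes tested was 0.92 on this scale, and at an adjusted p under 0.05 and at least 2-fold 45.7% of them were called higher in adipose tissue and 3.26% lower. The gland has 1 library, whose spread was assumed to be that of the other labels, and the sign for SCD depended on the setting, with -0.58 after quantile normalization, -0.17 without the adipose library of male B and -0.03 with the animal as a block. FASN ran between 0.04 after quantile normalization and 1.44 after rescaling to the same sum.

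The dry gland library was below every adipose library, and more so for SCD than for FASN by value. SCD was at 21.4 FPKM in the dry gland, 1.0% of the adipose mean, while FASN was at 90.6 FPKM, 5.36% of it. Adipose tissue was higher than the dry gland by 6.31 ± 0.81 (log2, SE) for SCD (limma adjusted p = 1.22e-07) and by 3.81 ± 0.84 for FASN (limma adjusted p = 6.25e-04), where 5.62% of genes tested were called higher. The dry gland has 1 library, so these p-values rest on the spread within the other labels. The adipose tissue of the dry cow herself had 1143 FPKM of SCD and 453 FPKM of FASN, both more than her gland. A fit that blocks on the animal, with lymphocytes left out, gave smaller log2 differences, 5.82 for SCD and 3.21 for FASN. As 1 cow gave a dry gland, the dry stage cannot be told apart from what is particular to her gland.

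The lactating gland was set beside the dry gland to describe both enzymes in milk production. SCD was 70.8 times and FASN 7.90 times as high in the lactating as in the dry gland, by FPKM. With 1 added to each FPKM the log2 differences were 6.08 and 2.97, while the median over the 13002 genes with at least 1 FPKM in either gland was -1.50, and a 4-fold excess in the lactating gland was seen in 0.831% of those genes. As ppm of the FPKM outside the 7 leading genes of the lactating gland, SCD was at 6390 in the lactating gland against 31.7 in the dry one, and FASN at 3016 against 134. There is 1 library of each gland, so there is no test, and stage of lactation and cow cannot be told apart.

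The same 2 cows differed less in their other tissues. Over 12 tissues sampled in both, the lactating cow over the dry cow ranged between 0.339 (kidney) and 5.27 (ovary) for SCD, with a median of 1.04. For FASN this ratio ranged between 0.640 (ileum) and 5.75 (ovary), with a median of 1.05. Each gene was higher in the lactating cow in 6 of the 12 tissues. In muscle the lactating cow had more of both, with 64.9 against 25.1 FPKM of SCD and 33.0 against 13.2 FPKM of FASN. In kidney and lung she had less SCD, at 5.59 and 43.8 FPKM against 16.5 and 124 FPKM, and her kidney and lung libraries are 2 of the 10 without rumen traces. Her ovary and uterus are also without traces and had 5.27 and 5.19 times the SCD of the dry cow, and her other 5 such tissues had 0.756 to 1.34 times. The part of the traces in these ratios was not tested.

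**Figure D2:**
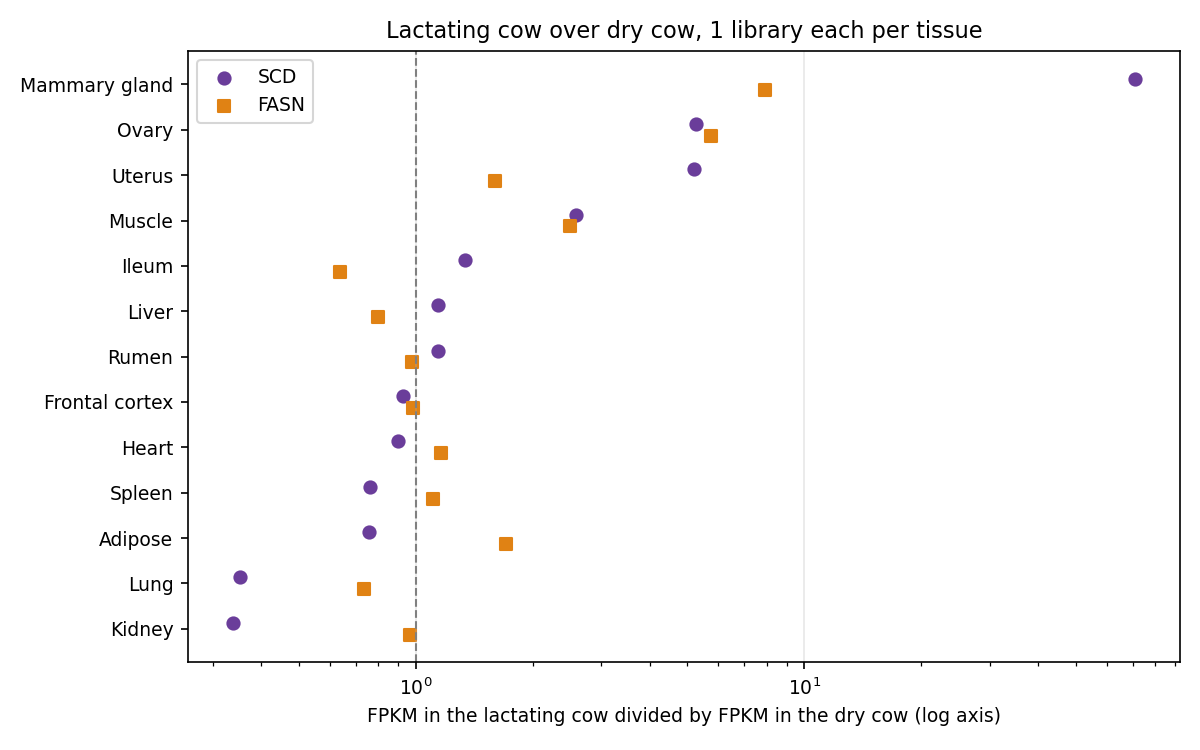
FPKM in the lactating cow divided by FPKM in the dry cow on a log axis, for the mammary gland and 12 other tissues, with SCD as circles and FASN as squares. The gland stands at 70.8 for SCD and 7.90 for FASN, while no other tissue exceeds 5.75.

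Liver, which makes little fatty acid in cattle, ranked 8th of the 15 labels for SCD and 13th for FASN by mean FPKM. Within the liver libraries SCD ranked between 1394th and 2737th by abundance among the 24616 identifiers, and FASN between 2942nd and 6324th. SCD was at 46.6 and 57.5 FPKM in the livers of males A and B and at 24.9 and 21.8 FPKM in those of the lactating and the dry cow. FASN was at 6.51, 21.9, 8.44 and 10.5 FPKM in the same animals. Liver SCD averaged 37.7 ± 17.2 FPKM and liver FASN 11.9 ± 6.91 FPKM (SD, n = 4 each), which is 1.76% and 0.700% of their adipose means. Every adipose library lay above every liver library for both genes, and within each animal adipose tissue was higher. The share of all genes tested with this separation was not counted.

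Adipose tissue was higher than liver by 5.63 ± 0.51 on the log2 scale for SCD (SE; limma adjusted p = 5.47e-12) and by 6.78 ± 0.53 for FASN (limma adjusted p = 8.77e-14). Ordered from the highest to the lowest signed difference, they were 84th and 29th among the 16634 genes tested. Of these genes 27.4% were called higher and 9.12% lower in adipose tissue, and their median difference was 0.48. Quantile normalization brought that median to 0.07 and the differences to values that still passed. Against the mean of the other labels liver SCD differed by -0.54 ± 0.39 (SE), which was not called (limma adjusted p = 0.189). Liver FASN differed by -2.07 ± 0.40 on the log2 scale (SE; limma adjusted p = 1.52e-05) and was called lower, as were 3.6% of genes tested, while the median of all genes in liver was -0.60. That call sat just past the 4-fold limit and was lost at -1.98 after rescaling to the same sum, at -1.59 after quantile normalization, at -1.58 among the 10 tissues of all 4 animals, at -1.74 without male A and at -1.64 without the lactating cow, with an adjusted p of at most 0.00211 in all 5.

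The order of the other tissues was not the same for the 2 genes. For SCD, lung (104 ± 40.1 FPKM), frontal cortex (69.5 ± 22.4), ileum (58.0 ± 28.2) and muscle (48.6 ± 19.9) lay above liver, and heart (30.0 ± 11.5), kidney (19.8 ± 11.1), rumen (15.7 ± 2.79) and spleen (4.39 ± 1.03) below it (SD, n = 4 each). For FASN, frontal cortex (69.1 ± 12.8 FPKM), ileum (56.7 ± 63.1), lung (50.2 ± 8.32), muscle (28.2 ± 9.98), spleen (21.4 ± 4.99) and rumen (12.5 ± 3.06) lay above liver, and kidney (8.67 ± 2.91) and heart (5.68 ± 3.69) below it. In the order of all 15 labels, most neighbours overlapped in their libraries. The exceptions were lactating gland above ovary for both genes, rumen above lymphocytes for SCD, and dry gland above frontal cortex and lymphocytes above muscle for FASN, and each of these pairs has a label with a single library. Ileum FASN, which lay above lung by mean FPKM, lay below it by mean log2 value. In 12 pairs of neighbouring labels with 4 libraries each, exact two-sided permutation tests on log2(FPKM + 1) gave p of 0.2 to 0.914, so 0 passed before or after adjustment over the 12. The smallest p that 4 against 4 libraries allow is 0.0286. The 12 pairs were picked as neighbours by mean FPKM in these same data, which favours small differences. The test also ignored that both labels of a pair come from the same 4 animals. It therefore cannot say whether neighbouring tissues differ.

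Spleen and heart stood at the low ends. SCD in spleen was at 3.62, 5.73, 3.54 and 4.65 FPKM in male A, male B, the lactating cow and the dry cow, and of the other 9 tissues with 4 libraries only the kidney of the lactating cow, at 5.59 FPKM, fell inside this range. Spleen minus the mean of the other labels was -3.49 ± 0.39 for SCD on the log2 scale (SE; limma adjusted p = 7.64e-10), where 1.03% of genes tested were called lower. Spleen FASN, at 26.4, 24.97, 18.0 and 16.3 FPKM, differed by -1.10 ± 0.40 (SE), under the 4-fold limit.

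Heart showed the reverse, with FASN at 6.82, 10.4, 2.95 and 2.54 FPKM and SCD at 36.4, 42.9, 19.3 and 21.4 FPKM in the same order of animals. Heart minus the mean of the other labels was -3.12 ± 0.40 for FASN (SE; limma adjusted p = 1.02e-08), where 2.04% of genes tested were called lower, and for SCD it was -0.85 ± 0.39 (SE), which is under the limit. Kidney FASN was also called lower, at -2.42 ± 0.40 (SE; limma adjusted p = 1.88e-06), as were 0.866% of genes tested. It fell short of the 4-fold limit at -1.96 without the lactating cow and at -1.94 among the 10 tissues of all 4 animals. Uterus SCD was called lower at -2.52 ± 0.53 (SE; limma adjusted p = 1.83e-04), as were 0.367% of genes tested. It rests on 19.7 FPKM in the lactating cow and 3.80 FPKM in the dry cow, and was not tested with 1 of the cows left out, which leaves a single uterus library. In all, SCD was called higher in 1 of 12 labels with 2 or more libraries, adipose tissue, and lower in 2, and FASN was called higher in 1 and lower in 3. Over the 12 labels, 0.138% (ileum) to 8.98% (muscle) of all genes tested were called lower.

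Ovary held both transcripts unevenly. The ovary of the lactating cow had 395 FPKM of SCD and 276 FPKM of FASN, and that of the dry cow 75.0 and 48.0 FPKM. Ovary differed from the mean of the other labels by 1.90 ± 0.53 for SCD and 1.48 ± 0.55 for FASN (log2, SE), under the 4-fold limit, where 2.5% of genes tested were called higher. A fit that blocks on the animal and drops the lymphocyte library gave another call: ovary SCD was called at 2.05 (limma adjusted p = 4.54e-04), and rumen was called lower at -2.003 for SCD and -2.02 for FASN. Without the block rumen stood at -1.74 for SCD and -1.88 for FASN and was not called, against 0.95% of genes tested called lower. Rescaling each library to the same sum, with no block, also called rumen FASN lower, at -2.10 (limma adjusted p = 3.21e-05).

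To see whether the levels outside adipose tissue go with fat in the sample, other genes higher in adipose tissue were taken as a measure. These genes averaged 10 FPKM or more in adipose tissue, at least 4-fold above each other label mean, leaving out the label described and both members, which gave 51 to 66 unnamed genes. Their level in a library is the median percentage of the adipose mean. In the lactating gland these genes stood at 0.681%, while SCD stood at 70.9% and FASN at 42.3% of their own adipose means. In the dry gland they stood at 6.49%, above SCD at 1.0% and FASN at 5.36%.

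The same measure separated other libraries. In the ovary of the lactating cow the adipose genes stood at 2.36% against 3.02% in the dry cow's ovary, while SCD was at 18.5% against 3.50% and FASN at 16.3% against 2.83%. In uterus the adipose genes were at 6.71% in the lactating and 13.8% in the dry cow, and SCD at 0.922% and 0.178%. Uterus FASN was at 1.28% and 0.802% in the same cows. In the ileum of male A the adipose genes were at 9.12%, against 1.53% to 3.39% in the other 3 ilea, and FASN was at 8.93% against 1.09% to 1.71%. SCD there was at 4.50% against 1.43% to 2.82%. In heart the adipose genes were at 3.15% to 7.85%, above SCD at 0.900% to 2.01% and FASN at 0.150% to 0.615%. In frontal cortex they were at 0.812% to 1.07%, below SCD at 2.33% to 4.58% and FASN at 3.42% to 4.92%. In spleen the adipose genes were at 0.604% to 1.26%, above SCD at 0.165% to 0.268%. FASN stood above the adipose genes in each spleen, at 0.963% to 1.56%. The part of the adipose genes in the levels of SCD and FASN was not tested.

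**Figure D3:**
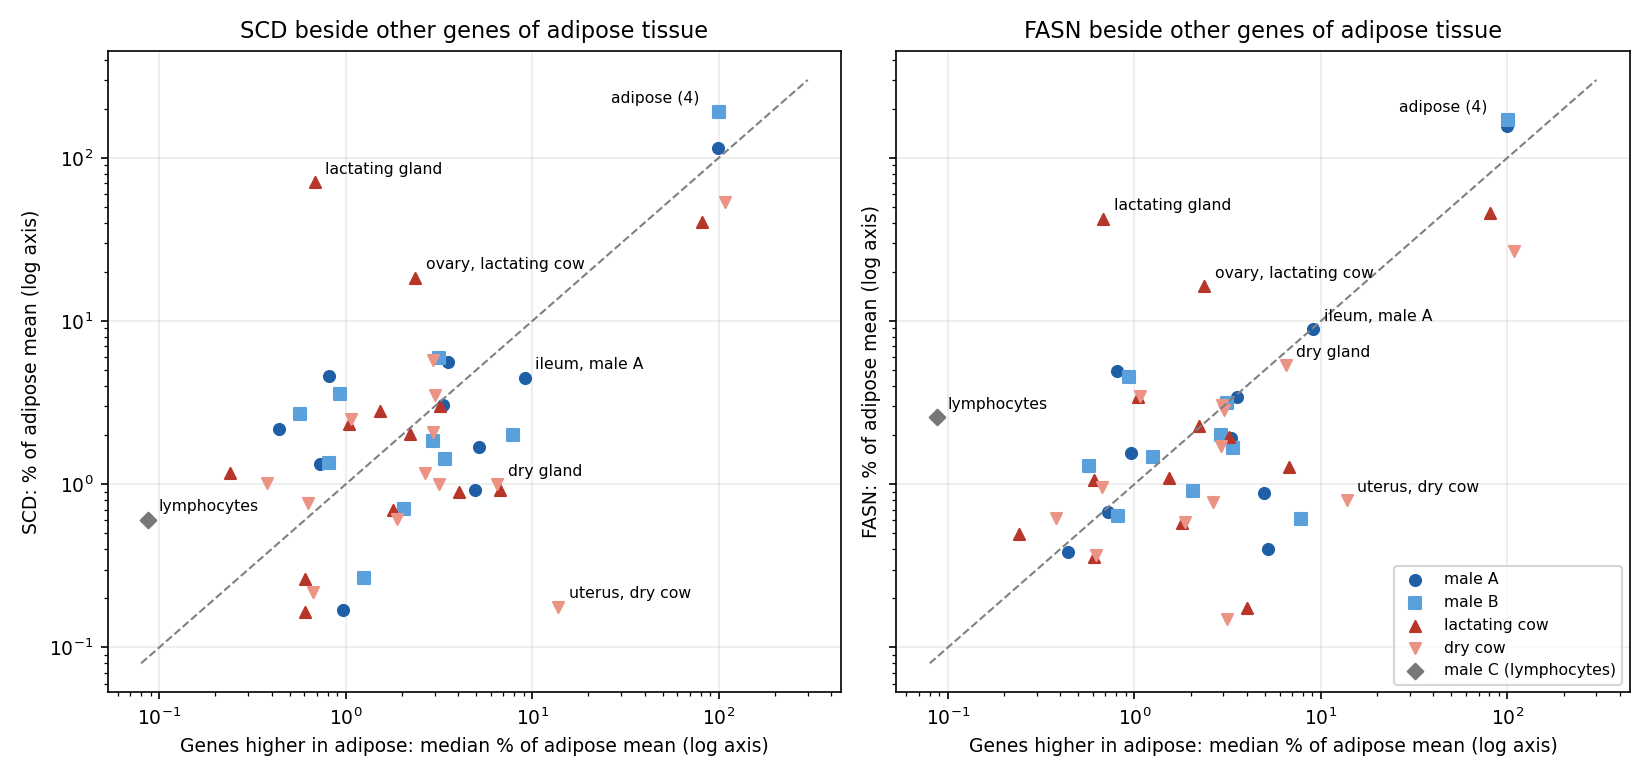
Each point is a library, with the median level of other genes higher in adipose tissue (x, as a percentage of their adipose mean) beside the level of SCD (left) or FASN (right) as a percentage of its own adipose mean (y), both on log axes, and a dashed line at equality. The lactating gland lies far above the line, at 0.681% on x and 70.9% (SCD) or 42.3% (FASN) on y, and the uterus of the dry cow far below it.

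Males and females differed most in adipose tissue by value. There SCD averaged 3276 FPKM in the 2 males and 1004 FPKM in the 2 females, and FASN 2771 and 613 FPKM. Males were higher by 1.67 ± 0.48 on the log2 scale for SCD (SE; limma adjusted p = 0.0229) and by 2.22 ± 0.49 for FASN (limma adjusted p = 0.00367), in 2 of 2 males for both, where 5.13% of genes tested were called higher and 6.59% lower in males. With 2 animals of each sex, sex cannot be told apart from animal, age or the stage of the cows. The call for SCD was lost without male A (adjusted p = 0.0767), male B (0.249) or the lactating cow (0.103), where the lone animal was assumed to vary like the others, and among libraries with rumen traces (0.115). That for FASN was lost without the dry cow (0.145).

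Other adipose genes went both ways. Of 51 other genes higher in adipose tissue, 28 had a higher mean in males, 9 were called higher and 10 lower, and their median male minus female difference was 0.31 on the log2 scale. The median of all genes tested was -0.07.

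Outside adipose tissue the male mean of log2(FPKM + 1) was also the higher one in all 9 tissues for both genes, so that males were higher in 20 of 20 pairs of gene and tissue. Without any 1 of the 4 animals, and among libraries with rumen traces, it was 18 of 20. Of the genes tested, 3.65% had a higher male mean in all 10 tissues. Libraries of males and females did not overlap in 13 of the 20 pairs. The share of such pairs over all genes tested was not counted, and the 20 pairs come from the same 4 animals, so this count is a description. Heart FASN was at 6.82 and 10.4 FPKM in males against 2.95 and 2.54 FPKM in females, and liver SCD at 46.6 and 57.5 FPKM against 24.9 and 21.8 FPKM. The differences ran between 0.06 (SCD in ileum) and 2.22 (FASN in adipose tissue), with a median of 0.69 on the log2 scale.

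Only 3 of the 20 differences passed the test, both in adipose tissue and FASN in ileum, where 15.3% of genes tested were called higher in males. That share was between 0.206% and 15.3% over the 10 tissues. Ileum FASN was at 151 and 28.2 FPKM in males against 18.5 and 28.9 FPKM in females, so the sexes overlapped and the call rested on male A, without whom the difference was 0.27 (limma adjusted p = 0.791). It was also lost without the lactating cow (adjusted p = 0.428) and without the dry cow (0.0662). The animal being the replicate of sex, the mean over 10 tissues was 5.97 and 5.86 in males A and B against 5.08 and 5.26 in the lactating and the dry cow for SCD, and 5.42 and 5.39 against 4.59 and 4.50 for FASN, as log2(FPKM + 1). An exact permutation test of 2 against 2 animals cannot go below 0.333. Male minus female in adipose tissue exceeded that in the other 9 tissues by 1.03 ± 0.51 for SCD (SE; limma adjusted p = 0.197) and 1.51 ± 0.52 for FASN (adjusted p = 0.0577), so a larger difference in adipose tissue was not called, against 3.99% of genes tested that were. After quantile normalization the excess for FASN was called, at 1.99 (adjusted p = 0.0209).

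**Figure D4:**
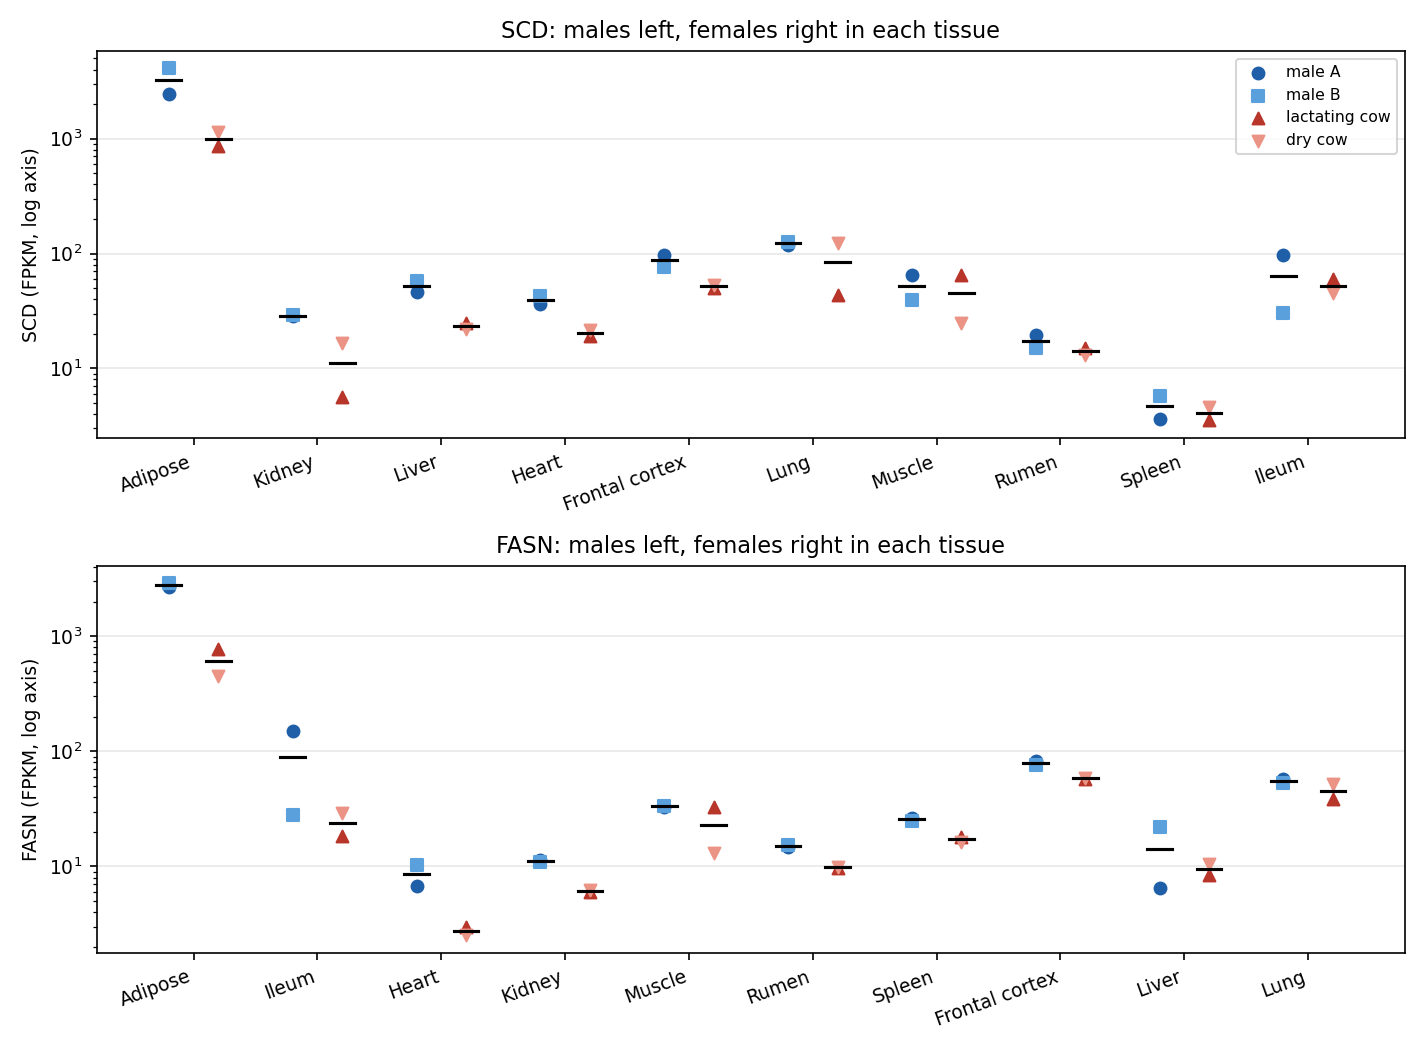
FPKM of SCD (top) and FASN (bottom) on a log axis in the 10 tissues of all 4 animals, with males left and females right in each tissue, means as bars, and tissues in order of the male minus female difference. In adipose tissue males average 3276 and 2771 FPKM and females 1004 and 613 FPKM for SCD and FASN.

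The ratio of SCD to FASN transcripts differed between tissues by value. SCD exceeded FASN in 33 of the 47 libraries. In heart the ratio of SCD to FASN ran between 4.13 and 8.44 (median 5.93), in liver between 2.07 and 7.16 (2.79) and in adipose tissue between 0.922 and 2.52 (1.27). In spleen it ran between 0.137 and 0.285 (0.213), with FASN above SCD in all 4 libraries. Lymphocytes, with 12.95 FPKM of SCD and 43.7 FPKM of FASN, had a ratio of 0.297. The lactating gland, at 2.12, and the dry gland, at 0.236, lay on opposite sides of 1. Frontal cortex, where myelin lipid is made, had SCD and FASN at near equal levels in each library, with ratios of 0.862 to 1.18. These ratios are a description, and no test was made of them. They take SCD as deposited, and whether ENSBTAG00000047957, the gene most like SCD, shares fragments with it was not tested, which limits any reading of SCD against FASN.

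**Figure D5:**
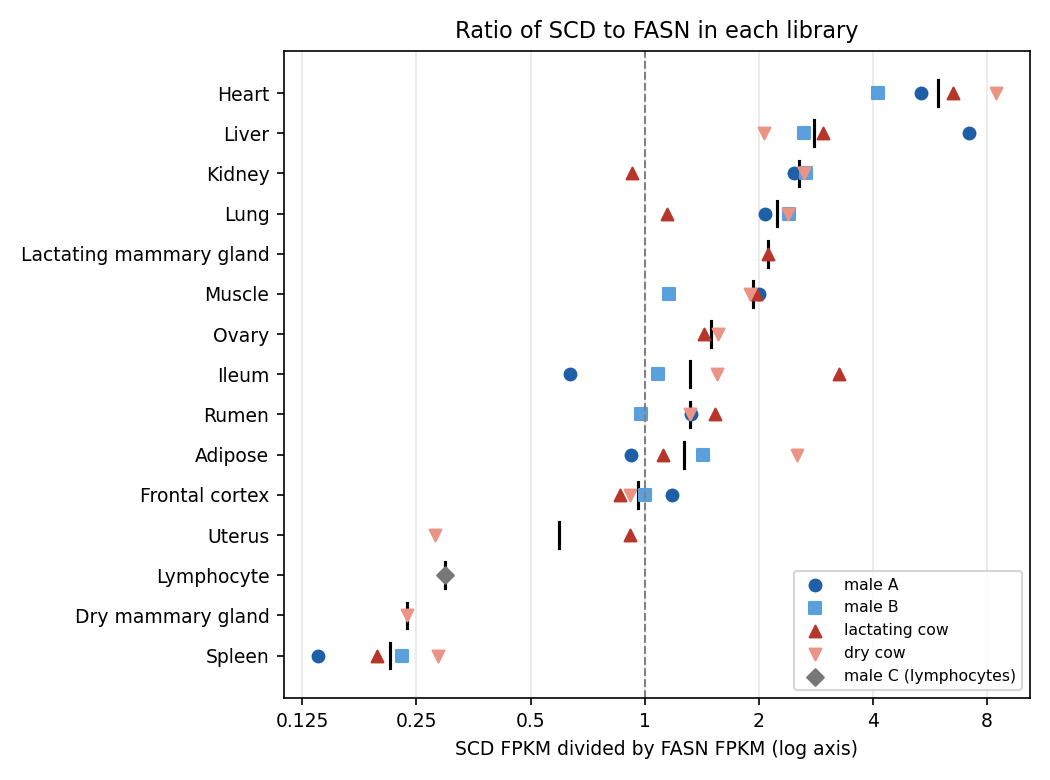
SCD FPKM divided by FASN FPKM in each library on a log axis, with labels ordered by their median (black bar) and a dashed line at 1. Heart lies highest, with ratios of 4.13 to 8.44, and spleen lowest, with ratios of 0.137 to 0.285.

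Across libraries SCD and FASN varied together, with lower coefficients outside adipose tissue and lactating gland. Over all 47 libraries Pearson's r of log2(FPKM + 1) was 0.844 and Spearman's rho 0.706, and over the 42 libraries outside adipose tissue and lactating gland r was 0.570 and rho 0.589. Deviations from the tissue means over 40 libraries gave r of 0.701. These are descriptions over libraries that share tissues and animals. Tissue took 92.7% of the variance of SCD over these 40 libraries and 91.2% of that of FASN, against a median of 93.3% over all genes tested. The animal took 3.06% and 3.96%, against a median of 1.03%, and sex, which is a part of the animal share, 2.95% and 3.93% against 0.382%.

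The gene most like SCD over the 15 label means was ENSBTAG00000047957, with a Pearson r of 0.995. It was at 1535, 2694, 511 and 721 FPKM in the adipose tissue of male A, male B, the lactating cow and the dry cow, and over all 47 libraries SCD was between 0.773 and 1.90 times as high (r of log2 values 0.991). The sources used here do not name what it encodes. Whether it shares fragments with SCD was not tested. FASN was the 5th most like SCD of 16633 genes, with r of 0.844, and SCD the 3rd most like FASN. The most like FASN was ENSBTAG00000017567, with r of 0.923, at 165, 184, 53.6 and 50.3 FPKM in the same adipose libraries. Without adipose tissue and lactating gland, r between SCD and FASN over 13 labels was 0.491, which placed FASN 224th among the genes most like SCD and SCD 2335th among those most like FASN.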

How the data were processed

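Total RNA was extracted with Trizol and purified on columns, TruSeq libraries were sequenced as paired reads on a HiSeq instrument, and high RNA integrity was required, per the labels' protocols. Trimmomatic 0.39, STAR, Cufflinks and the assembly UMD3.1 are named in the submitters' processing notes, without order, settings or annotation. The authors deposited 1 table of FPKM. Of its 51 columns, 47 matched a sample by name, 4 matched none and were not used.

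Samples were grouped by tissue label. Linear models (limma 3.58.1 in R 4.3.3, trended variances) were fitted to log2(FPKM + 1), a scale that understates changes of low genes. One mean per label over 47 libraries gave the tissue contrasts. One mean per tissue and sex over 40 libraries gave the male minus female contrasts, among 16503 genes. The tissue fit was run on simulated data with known differences between adipose tissue and liver. Those simulated libraries were independent, so the run does not cover libraries that share animals. The named genes are SCD, FASN and the gene most like each over the label means. Members, lists and tests were chosen with earlier results of these data known. Pathway and marker lists set by symbol could not be applied, as the reference table (ARS-UCD2.0) holds no Ensembl identifiers and 0 identifiers matched. Alternatives were another pseudocount, filter or scaling, libraries or animals left out, and the animal as a block. Tissues came from the same animals, and the deviations of 2 tissues of 1 animal correlated over genes with a median of 0.18 (-0.03 to 0.46, 180 pairs), and at 0.04 to 0.22 for adipose and liver. Python 3.11.15, scipy 1.17.1 and pandas 2.3.3 were used for the rest.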

Additional observations from a re-analysis of the deposited data

Results flagged for a closer look

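In groups of 4 libraries, the highest or lowest value was compared with its nearest neighbour, and 3 of 20 pairs of gene and tissue had a value set apart beyond the 95% critical value of Dixon's test. Chance sets apart about 1 in 20 where values are normally distributed, and the test was made on FPKM. The share set apart over all genes tested was not counted, so whether 3 of 20 is unusual is unknown. SCD in the lung of the lactating cow was at 43.8 FPKM, against 120 to 127 FPKM in the other 3 lungs. FASN was also lowest in that lung, at 38.3 FPKM. FASN in the ileum of male A was at 151 FPKM, against 18.5 to 28.9 FPKM in the other 3 ilea, and SCD was highest there too, at 96.2 FPKM. FASN in the muscle of the dry cow was at 13.2 FPKM, against 32.6 to 33.8 FPKM in the other 3 muscles, and SCD was lowest there as well, at 25.1 FPKM.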

How the results depend on the processing

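SCD and FASN stayed called higher in adipose tissue under every alternative run, at 5.09 to 6.32 and 4.80 to 5.95 against the other labels, 5.23 to 5.98 and 6.39 to 7.27 against liver, and 5.82 to 6.93 and 3.21 to 4.30 against the dry gland (log2). Against the lactating gland SCD turned to -0.58 after quantile normalization and -0.030 with the replicate block, and ran between -0.17 and 0.57 without each adipose library. Leaving out each animal gave male minus female differences in adipose tissue of 1.3 to 2.04 for SCD and 1.84 to 2.61 for FASN, and libraries with rumen traces gave 1.47 for SCD. Lactating minus dry gland was 6.08 (SCD) and 2.97 (FASN) on the log2 scale in the main setting. On that log2 scale the differences became 7.51 and 4.09 after quantile normalization, and 7.61 and 4.48 relative to the sum without 7 genes. Labels other than adipose tissue in which SCD was called higher numbered 1 with the replicate block in place of 0. Those in which it was called lower numbered 1 in place of 2 without either cow, among libraries with traces and among the 10 tissues, where uterus has fewer than 2 libraries and was not tested, and for FASN 1 in place of 3 among the 10 tissues and 1 to 3 without each animal. Liver SCD against the other labels ran between -0.72 and 0.055 without each animal, above 0 only without the lactating cow. The mean log2 ratio of SCD to FASN in frontal cortex, -0.03, ran between -0.11 and 0.036 without each library. Genes called in adipose tissue against the other labels became 1015 higher and 564 lower with a pseudocount of 0.1 FPKM in place of 578 and 121, with 226 lower among the 10 tissues. After quantile normalization 2485 in place of 4560 were higher than in liver, and 2210 higher and 1948 lower than in the lactating gland in place of 7597 and 542. Male minus female calls in adipose tissue fell to as few as 375 higher and 334 lower without male A, in place of 846 and 1088. The replicate block changed no other call of SCD or FASN than those for ovary and rumen given above. No block was fitted between sexes, as each animal has 1 sex. Leaving out libraries was not run between neighbouring labels, as 3 against 4 cannot pass 0.05. The settings for labels other than adipose tissue, leaving out whole animals in the label fit, the ratio without each library, the pseudocount between neighbours and rescaling between sexes were chosen after seeing the data. The causes of the remaining changes were not tested, and without counts no detection limit could be set.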
